A study of Mus musculus with 12 samples.

Results

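The genes described here are 39 mouse genes of the unfolded protein response and the integrated stress response, the programs by which cells answer misfolded protein in the endoplasmic reticulum (ER) and amino acid shortage. They were chosen by function: ER chaperones and folding factors, ER-associated degradation (ERAD), stress sensors, and ATF4 with its targets. A gene was used where an array transcript cluster named it alone. That held for 38 of the 39, among 14611 genes tested in all, and Pdia4, an ER disulfide isomerase, was not analysed here because its cluster also named Mir704. All 38 passed the level filter, a mean log2 signal above 2.01. They comprised 17 chaperone and ERAD genes, 5 sensor genes and 16 genes of the ATF4 arm.

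Expression had been measured in RAW 264.7 cells, adherent mouse macrophages transformed by Abelson murine leukemia virus, after miR-223, a microRNA of myeloid cells, had been added or blocked. Cells were grown to confluency and collected 48 h after transfection with pre-miR-223, which supplies the microRNA (Pre-miR-223), with anti-miR-223, which blocks it (Anti-miR-223), or with an irrelevant scramble (Scramble). Each of the 3 groups had 4 whole-transcript arrays titled as biological replicates. No label says whether replicates were separate cultures, so the p-values measure the spread between these arrays, which may be technical. All groups are 1 transformed line. Uptake of the oligonucleotides was not checked here, and no cluster named Mir223 alone. Of 10 macrophage markers, 9 passed the level filter, with means up to 11.2. Of 6 fibroblast markers 3 passed, and of 5 epithelial markers 3, with highest means of 2.53 and 3.52. Of 5 lymphoid markers, 0 passed. In such bulk samples fewer cells expressing a gene and less RNA per cell cannot be told apart.

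The ER lumen folds secreted and membrane proteins with the help of chaperones such as BiP. When unfolded protein accumulates, the membrane sensors IRE1, ATF6 and PERK are activated: IRE1 splices the Xbp1 mRNA, ATF6 is cleaved to a transcription factor, and PERK phosphorylates the translation factor eIF2, as does the amino acid sensor GCN2. XBP1 and ATF6 drive chaperone and ERAD genes, while eIF2 phosphorylation favours translation of ATF4, which drives amino acid enzymes and transporters and the transcription factor CHOP. Macrophages use the same sensors during secretion and inflammatory activation.

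The microRNA that the transfections are named for is shown as its mature 3p strand, with the seed (bases 2 to 8) in capitals. The seed is the part that pairs with target transcripts. RefSeq (GRCm38.p6) places this strand at chrX:96242884-96242905, plus strand. The sequences of the transfected oligonucleotides are not given here.
mmu-miR-223-3p: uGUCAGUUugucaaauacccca

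The chaperone and ATF4 arms differ in their promoter elements, and 5 promoters are shown to make that visible. Each is the 250 bases before the annotated start in RefSeq (GRCm38.p6), and 35 of the 38 genes had such a window. Capitals mark matches on either strand to the ER stress response element ERSE (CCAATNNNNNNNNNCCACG), to ERSE-II (ATTGG, any base, CCACG), or to the C/EBP-ATF response element CARE (TGATGNAA). None of the motifs overlapped in the windows shown. Hspa5 (chr2:34771840-34772089, plus strand) held 1 ERSE, Hsp90b1 (chr10:86705445-86705694, minus strand) held 2, and Herpud1 (chr8:94386179-94386428, plus strand) held an ERSE-II and a CARE. Asns (chr6:7693210-7693459, minus strand) and Chac1 (chr2:119350992-119351241, plus strand) each held a CARE.
Hspa5: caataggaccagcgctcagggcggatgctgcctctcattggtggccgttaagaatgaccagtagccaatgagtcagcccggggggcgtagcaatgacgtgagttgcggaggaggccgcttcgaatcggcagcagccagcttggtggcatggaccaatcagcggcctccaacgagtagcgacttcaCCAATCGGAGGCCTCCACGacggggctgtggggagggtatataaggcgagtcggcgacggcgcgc
Hsp90b1: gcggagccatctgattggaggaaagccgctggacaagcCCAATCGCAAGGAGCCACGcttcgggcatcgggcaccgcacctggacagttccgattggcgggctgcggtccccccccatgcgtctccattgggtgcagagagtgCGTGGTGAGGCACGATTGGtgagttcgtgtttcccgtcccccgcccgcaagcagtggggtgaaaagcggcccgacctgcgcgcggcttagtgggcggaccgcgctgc
Herpud1: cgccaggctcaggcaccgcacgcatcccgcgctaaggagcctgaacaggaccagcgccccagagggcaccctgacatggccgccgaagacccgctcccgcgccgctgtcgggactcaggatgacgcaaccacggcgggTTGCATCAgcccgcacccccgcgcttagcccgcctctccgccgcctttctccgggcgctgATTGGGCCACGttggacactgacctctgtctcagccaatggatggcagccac
Asns: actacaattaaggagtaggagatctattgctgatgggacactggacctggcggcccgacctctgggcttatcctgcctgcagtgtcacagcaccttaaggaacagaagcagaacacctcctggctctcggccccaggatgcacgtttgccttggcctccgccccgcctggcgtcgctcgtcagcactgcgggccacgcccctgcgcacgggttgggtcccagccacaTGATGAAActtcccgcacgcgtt
Chac1: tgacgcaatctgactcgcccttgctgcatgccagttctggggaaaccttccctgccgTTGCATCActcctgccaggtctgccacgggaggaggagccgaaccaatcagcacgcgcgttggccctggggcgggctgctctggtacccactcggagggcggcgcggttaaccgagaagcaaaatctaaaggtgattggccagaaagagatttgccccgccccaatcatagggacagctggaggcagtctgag

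ERSE was present in 8 of the 15 chaperone and ERAD genes with a window, namely Hspa5, Hsp90b1, Calr, Canx, Pdia6, Dnajc3, Creld2 and Syvn1. It was found in 0 of 4 sensor genes and 0 of 16 ATF4-arm genes, and in 0.113% of all 32851 windows. ERSE-II occurred in Herpud1 among the 35 genes and in 0.0304% of all windows. CARE occurred in Herpud1 and in 4 of the 16 ATF4-arm genes, Atf3, Nupr1, Asns and Chac1, against 3.45% of all windows. A further element, UPRE (TGACGTGG), was in no window of the 35 genes and in 0.563% of all windows. Counted over all 27025 genes with a window, the shares were 0.130% for ERSE, 0.0370% for ERSE-II, 3.91% for CARE and 0.603% for UPRE. A match describes letters in a window and shows no binding.

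Replicate 4 of Anti-miR-223 stood apart before any comparison. Its median correlation with the other 11 arrays was 0.967, against 0.988 to 0.992 for those, and 629 genes lay over 2-fold from their 12-array mean in it. Values for the stress response genes are therefore also given without this array where it moved them. Over all tested genes the median difference of Pre-miR-223 from Scramble was -0.05, that of Anti-miR-223 from Scramble -0.01, and that of Pre-miR-223 from Anti-miR-223 -0.04, all on the log2 scale.

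No stress response gene differed between Pre-miR-223, Anti-miR-223 and Scramble cells past the test. Limma called 0 of 38 in each of the 3 comparisons, as it called 0% of all 14611 genes, at a Benjamini-Hochberg adjusted p under 0.05, and an ordinary linear model also called 0. Before adjustment, p was under 0.05 in limma for 1 gene (Syvn1) in Pre-miR-223 against Scramble (background 4.87%), for 0 in Anti-miR-223 against Scramble (2.01%) and for 0 in Pre-miR-223 against Anti-miR-223 (3.61%). The ordinary linear model gave such a p for Syvn1 (background 4.83%), for Eif2ak3 (2.52%) and for 0 genes (3.63%) in the same comparisons. The groups did not separate completely for any of the 38 genes, against 2.98%, 1.55% and 1.67% of all genes in those comparisons. Over the 38 genes limma's adjusted p ranged between 0.921 and 0.994 for Pre-miR-223 against Scramble, was 1.0 for Anti-miR-223 against Scramble, and ranged between 0.946 and 0.997 for Pre-miR-223 against Anti-miR-223.

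How large a difference the arrays leave possible is given by the 95% confidence intervals. All 38 intervals stayed within a 2-fold change either way in each comparison, as did 98.5%, 98.9% and 97.9% of those of all genes. Within 1.5-fold lay 34, 34 and 32 of 38 intervals, against 82.8%, 88.1% and 82.9% of all genes. The median half-width over all genes was 0.29 on the log2 scale.

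**Figure D1:**
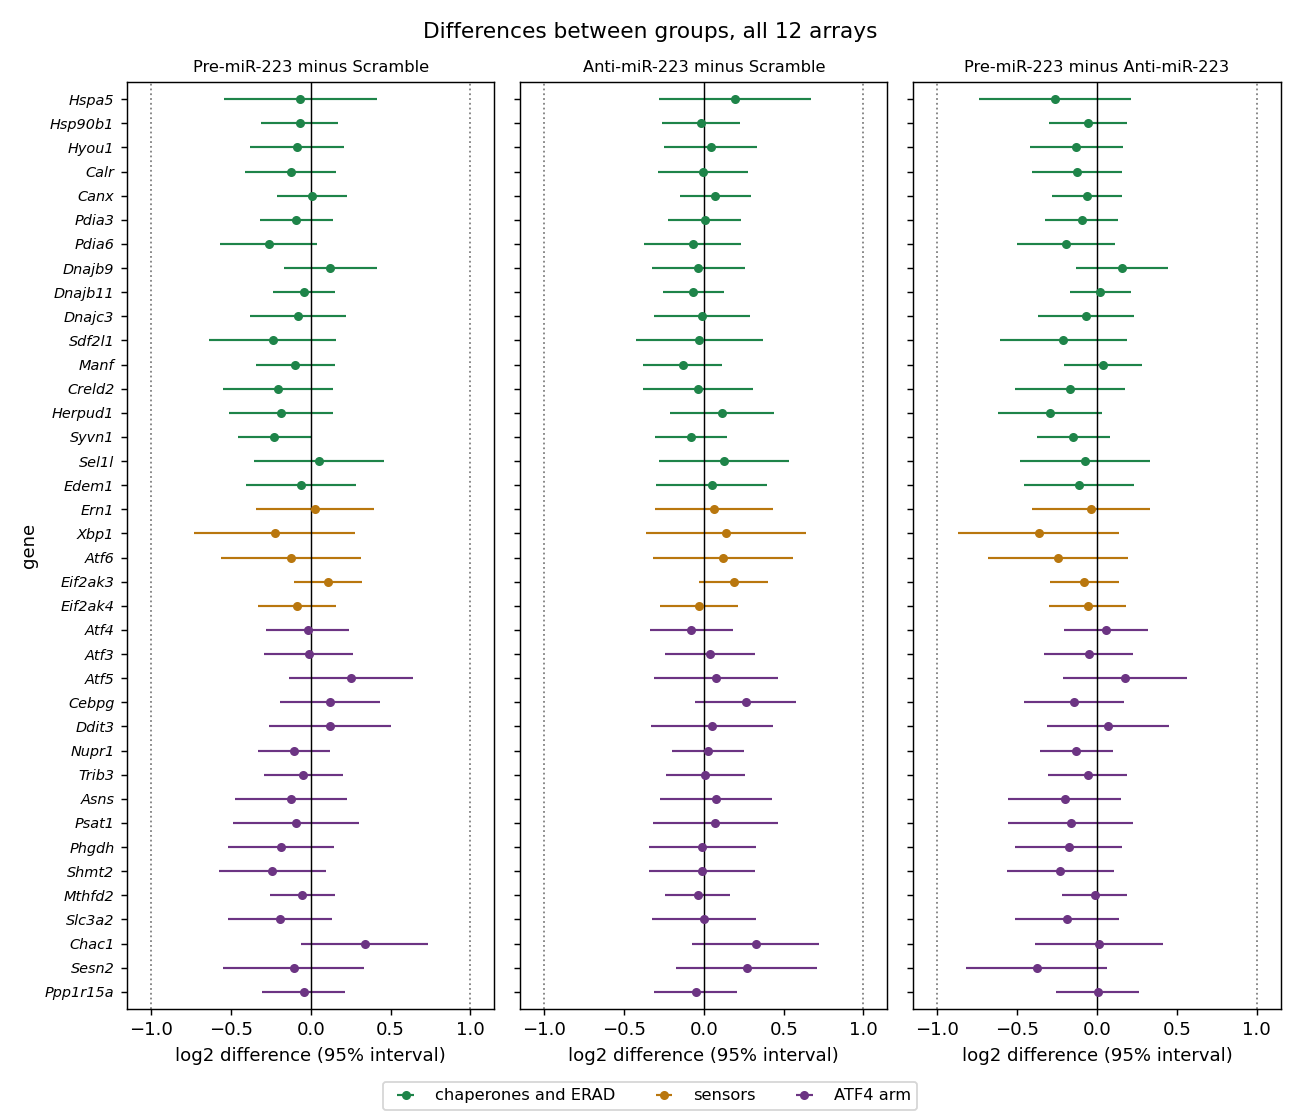
Log2 difference between group means (x axis, points) with its 95% confidence interval (bars) for each of the 38 genes (y axis), coloured by arm; dotted lines mark a 2-fold change. Every interval lies between the dotted lines, and all but that of Syvn1 in Pre-miR-223 minus Scramble cross 0.

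In Pre-miR-223 against Scramble, 9 differences were above 0 and 29 below it, where 34.8% of all genes were above 0 and 65.2% below. The median difference was -0.09 for chaperone and ERAD genes, -0.09 for sensors and -0.05 for the ATF4 arm. In Anti-miR-223 against Scramble 21 were above and 17 below (47.5% and 52.5% of all genes), with medians of -0.01, 0.12 and 0.03 for the same arms. Pre-miR-223 against Anti-miR-223 gave 8 above and 30 below (37.2% and 62.8%), with medians of -0.11, -0.08 and -0.09. These differences have no test. The medians of single arrays overlapped between the groups in every arm: for chaperone and ERAD genes the median deviation from the 12-array mean was -0.10 to 0.03 in Pre-miR-223 arrays, -0.15 to 0.44 in Anti-miR-223 arrays and -0.02 to 0.12 in Scramble arrays. Without Anti-miR-223 replicate 4 the comparisons with Anti-miR-223 changed. Anti-miR-223 against Scramble then had 10 above and 28 below, where 5317 of all 14611 genes were above 0 and 9294 below. Its medians were -0.12 for chaperone and ERAD genes, -0.11 for sensors and 0.0049 for the ATF4 arm, beside -0.05 for all genes. Pre-miR-223 against Anti-miR-223 then had 15 above and 23 below, where 6984 of all genes were above 0 and 7627 below. Its medians were 0.0034, -0.0085 and -0.04 for the same arms, beside -0.0084 for all genes. In the chaperone and ERAD arm 11 were then above and 6 below.

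Among the ER chaperones, Hspa5, which encodes the luminal Hsp70 chaperone BiP, had log2 signals of 7.96, 8.01, 7.90 and 8.04 in Pre-miR-223 cells, 7.85, 7.98, 7.96 and 9.17 in Anti-miR-223 cells, and 8.03, 8.16, 7.96 and 8.04 in Scramble cells. The other 11 arrays lay between 7.85 and 8.16, Anti-miR-223 replicate 4 was above them, and the groups overlapped. The differences were -0.06 (95% CI -0.54 to 0.41) for Pre-miR-223 from Scramble, 0.20 (-0.28 to 0.67) for Anti-miR-223 from Scramble and -0.26 (-0.74 to 0.22) for Pre-miR-223 from Anti-miR-223. Leaving out Anti-miR-223 replicate 4 gave -0.06 (-0.25 to 0.13), -0.11 (-0.32 to 0.09) and 0.05 (-0.16 to 0.25) in the same comparisons.

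Dnajb9 encodes ERdj4, a J-domain co-chaperone of BiP. It had 5.17, 5.18, 5.37 and 5.20 in Pre-miR-223 cells, 5.04, 5.11, 5.37 and 4.78 in Anti-miR-223 cells, and 5.16, 4.80, 5.23 and 5.24 in Scramble cells. The groups overlapped, with the lowest values in Anti-miR-223 replicate 4 and Scramble replicate 2. The differences were 0.12 (-0.17 to 0.41) for Pre-miR-223 from Scramble, -0.03 (-0.32 to 0.26) for Anti-miR-223 from Scramble and 0.16 (-0.13 to 0.45) for Pre-miR-223 from Anti-miR-223, and those involving Anti-miR-223 were 0.07 and 0.06 without its replicate 4.

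Pdia6, a disulfide isomerase that acts with BiP, had 8.63, 8.85, 8.59 and 8.48 in Pre-miR-223 cells, 8.64, 8.59, 8.86 and 9.23 in Anti-miR-223 cells, and 8.95, 9.06, 8.73 and 8.86 in Scramble cells. Of the Pre-miR-223 arrays, replicate 2 alone reached into the Scramble range. The difference of Pre-miR-223 from Scramble was -0.26 (-0.57 to 0.04) and that from Anti-miR-223 was -0.19 (-0.50 to 0.11), or -0.06 (-0.31 to 0.19) without Anti-miR-223 replicate 4. Leaving out Anti-miR-223 replicate 4, which enters the shared spread, gave an unadjusted p of 0.0298 for the difference from Scramble and an adjusted p of 0.521 in limma.

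Sdf2l1, a partner of ER J-proteins, had 6.96, 7.42, 7.08 and 6.98 in Pre-miR-223 cells, against 7.46, 7.37, 7.30 and 7.26 in Scramble cells. Its difference of -0.24 (-0.64 to 0.16) came with 1 Pre-miR-223 array inside the Scramble range and 3 below it. Manf, a secreted ER stress-inducible factor, had 4.76, 4.83, 4.85 and 4.33 in Anti-miR-223 cells, against 4.82, 4.80, 4.82 and 4.86 in Scramble cells. That difference was -0.13 (-0.38 to 0.11) and -0.01 without replicate 4, the lone low array.

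The other 8 chaperone and folding genes were Hsp90b1 (GRP94), Hyou1 (a large Hsp70-like chaperone), the lectin chaperones Calr and Canx, the disulfide isomerase Pdia3, the J-proteins Dnajb11 and Dnajc3, and Creld2, an ER stress-inducible protein. Their differences lay between -0.20 and 0.01 for Pre-miR-223 from Scramble, between -0.07 and 0.07 for Anti-miR-223 from Scramble and between -0.17 and 0.02 for Pre-miR-223 from Anti-miR-223. When Anti-miR-223 replicate 4 was left out, the last 2 ranges were -0.21 to -0.0033 and -0.04 to 0.09.

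Of the ERAD genes, Herpud1 encodes a membrane protein of the degradation complex and is a common marker of ER stress. It had 7.29, 7.36, 7.23 and 6.85 in Pre-miR-223 cells, 7.37, 7.22, 7.45 and 7.89 in Anti-miR-223 cells, and 7.46, 7.46, 7.40 and 7.16 in Scramble cells. Pre-miR-223 replicate 4 was the lowest array and Anti-miR-223 replicate 4 the highest, and the groups overlapped. The differences were -0.18 (-0.51 to 0.14) for Pre-miR-223 from Scramble, 0.11 (-0.21 to 0.44) for Anti-miR-223 from Scramble and -0.30 (-0.62 to 0.03) for Pre-miR-223 from Anti-miR-223; without Anti-miR-223 replicate 4 those involving Anti-miR-223 were -0.02 and -0.16.

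Syvn1, the ERAD ubiquitin ligase HRD1, was the gene with an unadjusted p under 0.05. It had 4.70, 4.96, 4.64 and 4.80 in Pre-miR-223 cells, 4.75, 4.89, 4.93 and 5.12 in Anti-miR-223 cells, and 5.03, 5.02, 5.04 and 4.92 in Scramble cells. Pre-miR-223 replicate 2 lay within the Scramble range and the other 3 Pre-miR-223 arrays below it. The difference of Pre-miR-223 from Scramble was -0.23 (-0.45 to -0.00095), with an unadjusted p of 0.0492 and an adjusted p of 0.921 in limma; 3.85% of all genes had such a p in that direction. Anti-miR-223 differed from Scramble by -0.08 (-0.31 to 0.15), and Pre-miR-223 from Anti-miR-223 by -0.15 (-0.37 to 0.08), or by -0.15 and -0.08 without Anti-miR-223 replicate 4. Which genes had an unadjusted p under 0.05 in Pre-miR-223 against Scramble changed with the setting. Syvn1 did not under the replicate block, a level filter at the 60th percentile, cyclic loess or repeated quantile normalisation. Nor did it under either centring or eBayes with trend and robust options. It did in 3 of the 12 fits that left out an array (those without Pre-miR-223 replicate 2, Anti-miR-223 replicate 1 or Anti-miR-223 replicate 4). Array weights gave Pdia6, Sdf2l1, Syvn1 and Chac1, where 12.9% of all genes had such a p. The other ERAD genes, Sel1l (the HRD1 adaptor) and Edem1 (a mannosidase-like factor that recognises misfolded glycoproteins), lay between -0.11 and 0.13 in the 3 comparisons. With Anti-miR-223 replicate 4 left out, Anti-miR-223 differed from Scramble by -0.13 for Sel1l and -0.16 for Edem1, and Pre-miR-223 from Anti-miR-223 by 0.18 and 0.09.

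**Figure D2:**
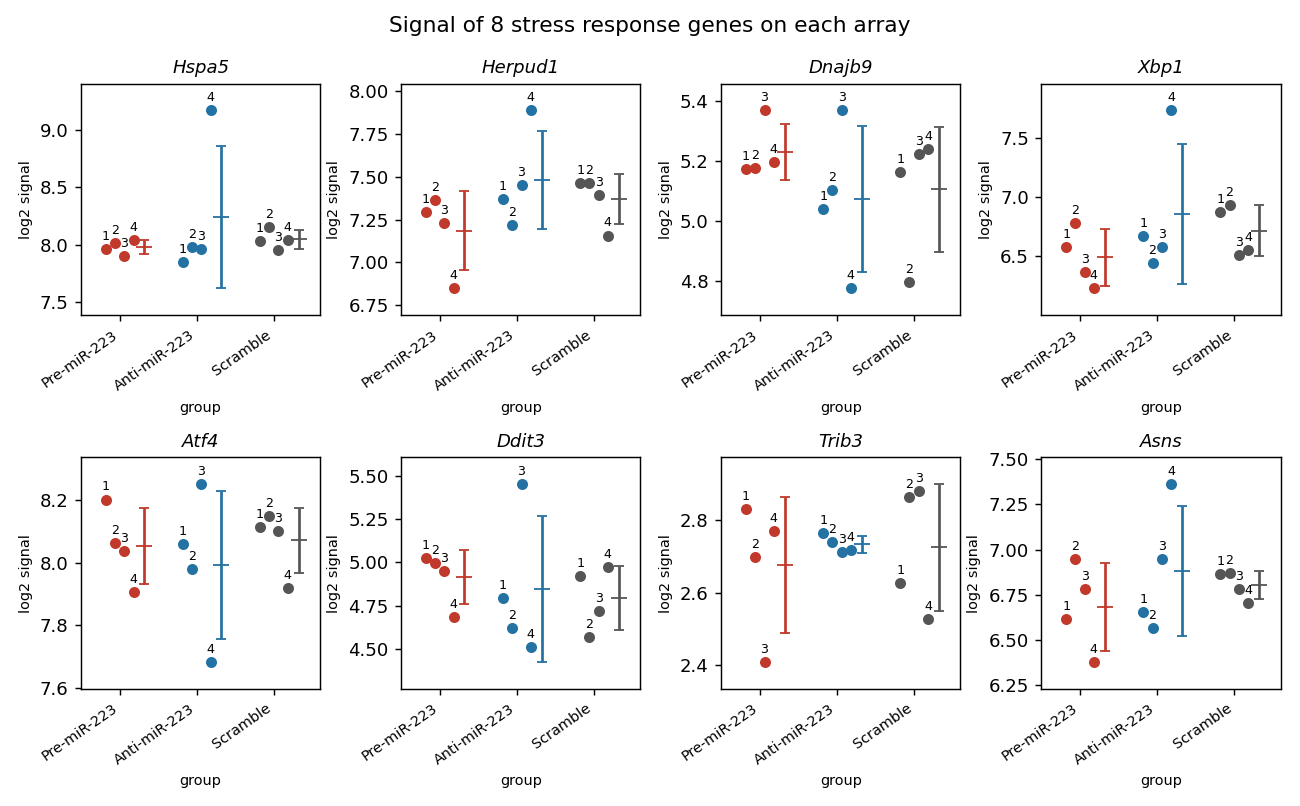
Log2 signal (y axes, a scale for each gene) of 8 genes on the 4 arrays of each group, numbered by replicate; the bar beside the points is the mean with its SD (n = 4). The groups overlap for every gene, and Anti-miR-223 replicate 4 is the highest of the 12 arrays for Hspa5, Herpud1, Xbp1 and Asns and the lowest for Dnajb9, Atf4 and Ddit3.

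Of the sensors and their effectors, Xbp1, whose spliced form is the transcription factor made downstream of IRE1, had 6.58, 6.78, 6.37 and 6.23 in Pre-miR-223 cells, 6.67, 6.44, 6.58 and 7.73 in Anti-miR-223 cells, and 6.88, 6.93, 6.51 and 6.55 in Scramble cells. The array value does not tell spliced from unspliced Xbp1. The groups overlapped, and 1 array of 12 exceeded 6.93. The differences were -0.23 (-0.73 to 0.28) for Pre-miR-223 from Scramble, 0.14 (-0.36 to 0.64) for Anti-miR-223 from Scramble and -0.36 (-0.87 to 0.14) for Pre-miR-223 from Anti-miR-223. Without Anti-miR-223 replicate 4 those involving Anti-miR-223 were -0.15 and -0.07.

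Atf6, the sensor that becomes a transcription factor on cleavage, had 7.74, 7.88, 7.49 and 7.36 in Pre-miR-223 cells, 7.53, 7.57, 7.77 and 8.57 in Anti-miR-223 cells, and 7.78, 8.0, 7.51 and 7.67 in Scramble cells. Anti-miR-223 differed from Scramble by 0.12 (-0.32 to 0.56), or -0.12 without replicate 4, and Pre-miR-223 from Anti-miR-223 by -0.24 (-0.68 to 0.19), or -0.01 without it. Both differences thus rested on 1 array.

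Eif2ak3, which encodes PERK, had 3.90, 3.78, 3.68 and 3.76 in Pre-miR-223 cells, 3.66, 3.91, 3.87 and 3.99 in Anti-miR-223 cells, and 3.78, 3.67, 3.66 and 3.57 in Scramble cells. In the Anti-miR-223 group 3 arrays lay above the Scramble range and 1 within it. The differences were 0.19 (-0.03 to 0.40) for Anti-miR-223 from Scramble, 0.11 (-0.11 to 0.32) for Pre-miR-223 from Scramble and -0.08 (-0.29 to 0.14) for Pre-miR-223 from Anti-miR-223. Those involving Anti-miR-223 were 0.14 and -0.03 without its replicate 4. Eif2ak4, which encodes the amino acid sensor GCN2, had 4.21, 4.53, 4.35 and 4.29 in Pre-miR-223 cells, against 4.40, 4.57, 4.35 and 4.41 in Scramble cells, a difference of -0.09 (-0.33 to 0.16). Ern1, which encodes IRE1, lay between -0.04 and 0.07 in the 3 comparisons, and without that array at -0.11 for Anti-miR-223 from Scramble and 0.14 for Pre-miR-223 from Anti-miR-223.

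In the ATF4 arm, Atf4 itself had 8.20, 8.06, 8.04 and 7.91 in Pre-miR-223 cells, 8.06, 7.98, 8.25 and 7.68 in Anti-miR-223 cells, and 8.11, 8.15, 8.10 and 7.92 in Scramble cells. ATF4 is regulated mostly at translation, which arrays of RNA do not measure. The groups overlapped, with differences of -0.02 (-0.28 to 0.24) for Pre-miR-223 from Scramble, -0.08 (-0.34 to 0.18) for Anti-miR-223 from Scramble and 0.06 (-0.20 to 0.32) for Pre-miR-223 from Anti-miR-223. Without Anti-miR-223 replicate 4, its lowest array, those involving Anti-miR-223 were 0.03 and -0.04.

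Ddit3, which encodes the pro-apoptotic factor CHOP, had 5.02, 5.0, 4.95 and 4.69 in Pre-miR-223 cells, 4.80, 4.62, 5.45 and 4.52 in Anti-miR-223 cells, and 4.92, 4.57, 4.72 and 4.97 in Scramble cells. Anti-miR-223 replicate 3 was the highest array and replicate 4 the lowest, so that this group spanned the other groups. The differences were 0.12 (-0.26 to 0.50) for Pre-miR-223 from Scramble, 0.05 (-0.33 to 0.43) for Anti-miR-223 from Scramble and 0.07 (-0.31 to 0.45) for Pre-miR-223 from Anti-miR-223, those involving Anti-miR-223 being 0.16 and -0.04 without its replicate 4.

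Trib3, a pseudokinase induced by ATF4 and CHOP, had 2.83, 2.70, 2.41 and 2.77 in Pre-miR-223 cells, 2.76, 2.74, 2.71 and 2.72 in Anti-miR-223 cells, and 2.63, 2.86, 2.88 and 2.53 in Scramble cells. The groups overlapped, and these signals were close to the lowest level tested, 2.01, where arrays resolve differences poorly. The differences were -0.05 (-0.29 to 0.20) for Pre-miR-223 from Scramble, 0.01 (-0.24 to 0.26) for Anti-miR-223 from Scramble and -0.06 (-0.30 to 0.19) for Pre-miR-223 from Anti-miR-223.

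Atf5, a transcription factor translated under the same stress as ATF4, had 5.21, 5.09, 5.17 and 5.52 in Pre-miR-223 cells, 5.14, 5.38, 5.32 and 4.44 in Anti-miR-223 cells, and 4.99, 4.78, 5.16 and 5.04 in Scramble cells. Anti-miR-223 replicate 4 was the lowest array, and 3 of 4 arrays of Pre-miR-223 lay above the Scramble range. Pre-miR-223 differed from Scramble by 0.25 (-0.13 to 0.64). Without Anti-miR-223 replicate 4, the interval for Pre-miR-223 was 0.01 to 0.50, with an unadjusted p of 0.0440 and an adjusted p of 0.531 in limma. In that fit Anti-miR-223 differed from Scramble by 0.29 (0.02 to 0.55), with an unadjusted p of 0.0362 and an adjusted p of 0.712 in limma. Both comparisons share the Scramble arrays.

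Cebpg, a dimer partner of ATF4, had 4.71, 5.22, 5.14 and 5.46 in Anti-miR-223 cells, against 4.60, 5.03, 5.02 and 4.84 in Scramble cells, a difference of 0.26 (-0.05 to 0.58). With 3 of 4 Anti-miR-223 arrays above the Scramble range, it was 0.15 without replicate 4. The remaining factors, Atf3, a stress-induced repressor and activator, and Nupr1, a small stress-induced chromatin protein, lay between -0.13 and 0.04 in the 3 comparisons, and between -0.16 and 0.06 without that array.

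Among the amino acid genes of the arm, Asns, asparagine synthetase, had 6.62, 6.95, 6.78 and 6.38 in Pre-miR-223 cells, 6.66, 6.57, 6.95 and 7.36 in Anti-miR-223 cells, and 6.86, 6.87, 6.78 and 6.71 in Scramble cells. The groups overlapped, with the extremes in Pre-miR-223 replicate 4 and Anti-miR-223 replicate 4. The differences were -0.12 (-0.48 to 0.23) for Pre-miR-223 from Scramble, 0.08 (-0.28 to 0.43) for Anti-miR-223 from Scramble and -0.20 (-0.55 to 0.15) for Pre-miR-223 from Anti-miR-223, and those involving Anti-miR-223 were -0.08 and -0.04 without its replicate 4.

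Shmt2, the mitochondrial serine hydroxymethyltransferase, had 7.80, 8.04, 7.91 and 7.49 in Pre-miR-223 cells, 7.96, 7.87, 8.13 and 8.19 in Anti-miR-223 cells, and 8.28, 8.33, 7.78 and 7.79 in Scramble cells. The Scramble arrays formed a high and a low pair that spanned the other groups, except Pre-miR-223 replicate 4, the lowest array. The differences were -0.24 (-0.57 to 0.09) for Pre-miR-223 from Scramble and -0.23 (-0.56 to 0.10) for Pre-miR-223 from Anti-miR-223. Slc3a2, the heavy chain of amino acid exchangers, had 7.96, 8.33, 7.94 and 7.96 in Pre-miR-223 cells, against 8.0, 7.98, 8.33 and 8.64 in Anti-miR-223 cells. The groups overlapped, and the difference was -0.19 (-0.52 to 0.14), or -0.06 without Anti-miR-223 replicate 4. All 6 genes of this role, which also include the serine synthesis enzymes Psat1 and Phgdh and the folate enzyme Mthfd2, had differences below 0 in Pre-miR-223 against Scramble, between -0.24 and -0.05, where 65.2% of all genes were below 0. Their median deviation from the 12-array mean was -0.31 in Pre-miR-223 replicate 4 and -0.12 to 0.12 in the other 3 Pre-miR-223 arrays, against -0.07 to 0.18 in Scramble arrays, so the groups overlapped.

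The last 3 genes act in feedback and redox control. Chac1, a glutathione-degrading enzyme and ATF4 target, had 3.26, 2.79, 3.19 and 2.75 in Pre-miR-223 cells, 3.08, 2.74, 3.31 and 2.80 in Anti-miR-223 cells, and 3.01, 2.89, 2.25 and 2.49 in Scramble cells. It gave the highest difference of the 38 genes from Scramble in either group, 0.34 (-0.06 to 0.74) for Pre-miR-223 and 0.32 (-0.08 to 0.72) for Anti-miR-223, and both share the same 2 low Scramble arrays. Like those of Trib3, these signals lie close to the lowest level tested. Sesn2, a leucine sensor of the sestrin family, had 2.53, 3.19, 2.97 and 3.02 in Pre-miR-223 cells, 3.06, 2.88, 3.49 and 3.79 in Anti-miR-223 cells, and 2.89, 3.47, 2.94 and 2.84 in Scramble cells. Its differences were 0.27 (-0.17 to 0.71) for Anti-miR-223 from Scramble, or 0.11 without replicate 4, and -0.38 (-0.82 to 0.07) for Pre-miR-223 from Anti-miR-223, or -0.22 without it. Ppp1r15a, the GADD34 subunit of the phosphatase that dephosphorylates eIF2, lay between -0.05 and 0.01 in the 3 comparisons.

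The pattern that stood out was in 1 array. In Anti-miR-223 replicate 4, 31 of the 38 genes lay outside the range of the other 11 arrays, 25 above and 6 below, where 34.1% of all tested genes lay above and 13.5% below. All 5 sensor genes and all 4 ERAD genes lay above; of the 13 chaperone and folding genes, 10 lay above and 3 below. In the ATF4 arm 6 of 16 lay above and 3 below (37.5% and 18.8%), near the shares of all tested genes. The median deviation from the 12-array mean in this array was 0.44 for chaperone and ERAD genes, 0.56 for sensors and 0.05 for the ATF4 arm, beside 0.08 for all tested genes. In the other 11 arrays the chaperone and ERAD median stayed between -0.15 and 0.12.

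**Figure D3:**
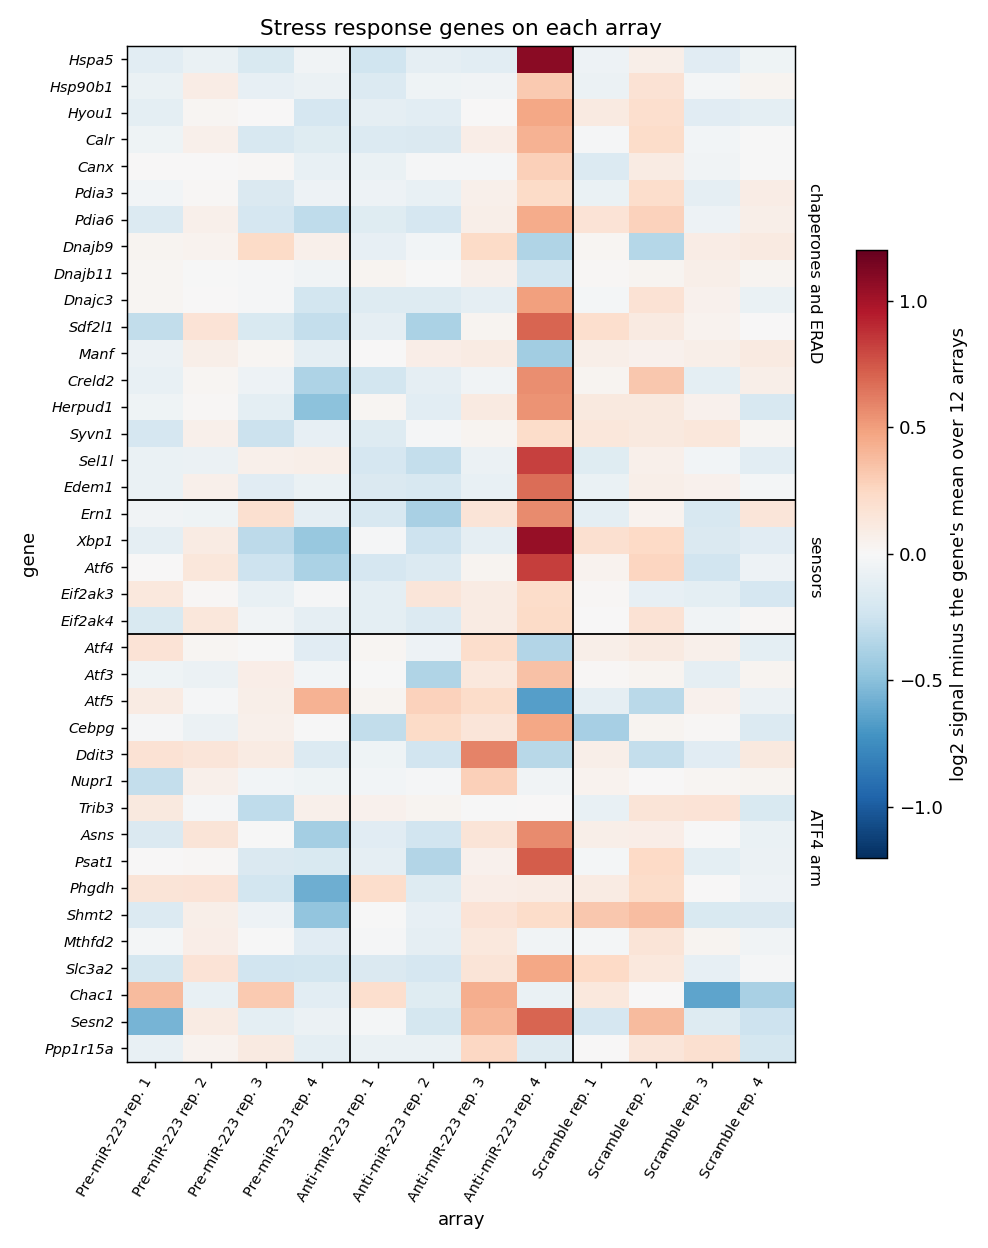
Log2 signal of the 38 genes (rows, by arm) on the 12 arrays (columns, by group), as the deviation from the mean of each gene over the arrays; red is above the mean and blue below. The column of Anti-miR-223 replicate 4 is red for the sensors and for 14 of the 17 chaperone and ERAD genes and mixed for the ATF4 arm.

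The genes farthest up in that array, relative to the mean of the other 11, were Hspa5 by 1.18, Xbp1 by 1.14, Atf6 by 0.90 and Sel1l by 0.90, followed by Psat1 with 0.79, Sesn2 and Sdf2l1 with 0.76, Edem1 with 0.73, Asns and Ern1 with 0.62, Creld2 with 0.60 and Herpud1 with 0.59. Atf5 was farthest down at -0.72, then Manf at -0.45, Dnajb9 and Atf4 at -0.39, Ddit3 at -0.37 and Dnajb11 at -0.24. Of the chaperone and ERAD genes, 14 of 17 thus stood above the other arrays, Hspa5 and Herpud1 among them, against 34.1% of all tested genes. The 3 below were Dnajb9, Manf and Dnajb11, and in the ATF4 arm Atf5, Atf4 and Ddit3 stood below. The other 3 Anti-miR-223 arrays did not share this, with Hspa5 at 7.85 to 7.98 there. As this array departs from the others across 47.6% of genes, what set it apart was not tested.

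The 8 genes with an ERSE were all above the other 11 arrays in Anti-miR-223 replicate 4, by 0.24 (Syvn1) to 1.18 (Hspa5) with a median of 0.47. Of the 6 chaperone and ERAD genes whose window held neither ERSE nor ERSE-II, 4 were above and 2, Dnajb9 and Dnajb11, below, with a median of 0.49. Pre-miR-223 against Scramble does not involve that array. There the median difference was -0.10 for the 8 ERSE genes, -0.05 for those 6 genes and -0.05 for all tested genes. It was -0.10 for the 5 genes with a CARE, which include Herpud1 and ranged from -0.18 to 0.34.

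**Figure D4:**
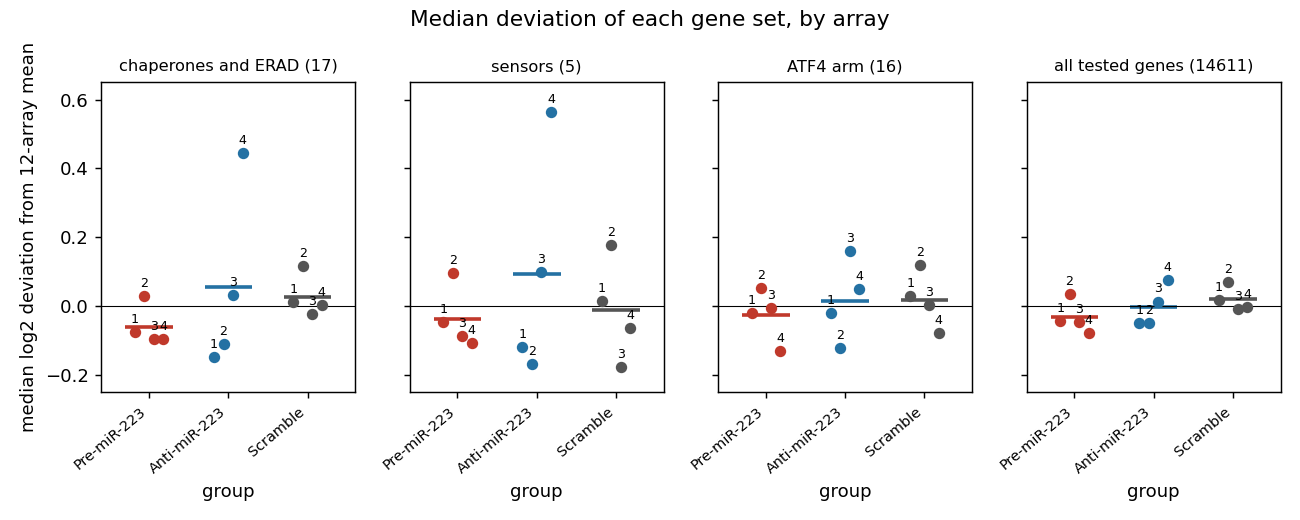
Median deviation from the 12-array mean (log2, y axis) of the chaperone and ERAD genes, the sensors, the ATF4 arm and all tested genes, per array (points, numbered by replicate) and averaged over each group (bars). Anti-miR-223 replicate 4 is at 0.44 and 0.56 in the chaperone and sensor panels, and the groups overlap in all 4 panels.

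Leaving out Anti-miR-223 replicate 4 narrowed the estimates. The median pooled SD of the chaperone and ERAD genes was 0.10 without it and 0.20 with it, that of all genes 0.17 and 0.19, and for Hspa5 0.07 and 0.37. Of the 38 intervals, 37 then lay within 1.5-fold in each comparison, and the share of all genes in that fit is not given here. Limma still called 0 genes; before adjustment p was under 0.05 for Pdia6, Syvn1 and Atf5 in Pre-miR-223 against Scramble and for Atf5 in Anti-miR-223 against Scramble, where 7.64% of all genes were lower and 1.74% higher in the first comparison, and 4.89% lower and 1.81% higher in the other. In Anti-miR-223 against Scramble 16 of 17 chaperone and ERAD genes were then below 0, where 9294 of 14611 genes were below 0 with a median of -0.05. Dnajc3 and Edem1 then lay below all Scramble arrays in all 3 Anti-miR-223 arrays, against 4.53% of all genes, and none lay above them, against 2.02%. Another, dimmer cluster of Edem1, described below, did not share this. It had 4.18, 4.49 and 4.06 in those 3 arrays, against 3.65, 3.43, 4.32 and 4.05 in Scramble cells. In Pre-miR-223 against Anti-miR-223 no gene then separated the groups (background 2.31% higher, 2.53% lower), and unadjusted p was under 0.05 for 0 of 38 (2.07% higher, 2.82% lower).

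In each array, the share of stress genes above their 12-array mean was set beside that of all genes. In all 12 arrays the share of stress genes lay on the same side of an even split and farther from even. It was 76.3% in Pre-miR-223 replicate 2 (60.4% of all genes) and 10.5% in Pre-miR-223 replicate 4 (34.1%). In Anti-miR-223 it was 21.1% in replicate 1 (39.1% of all genes), 13.2% in replicate 2 (39.2%), 76.3% in replicate 3 (53.8%) and 73.7% in replicate 4 (59.3%). Scramble replicate 2 had 89.5% (65.4%). Arrays of 1 group thus lay on both sides. Without Anti-miR-223 replicate 4, Dnajb11 varied least of the 38 genes between replicates of a group, with a pooled SD of 0.03, and Chac1 most, with 0.31; with it, Dnajb11 had 0.08 and Xbp1 the highest, 0.39.

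Edem1 was measured by 2 clusters that disagreed. The brighter one, used above, gave a difference of -0.06 (-0.41 to 0.29) for Pre-miR-223 from Scramble when all 15458 single-gene clusters above the level were fitted, an addition made after seeing the data. The dimmer one had 5.06, 3.87, 5.14 and 5.64 in Pre-miR-223 cells, 4.18, 4.49, 4.06 and 2.93 in Anti-miR-223 cells, and 3.65, 3.43, 4.32 and 4.05 in Scramble cells. In it 3 of 4 Pre-miR-223 arrays lay above all others. Pre-miR-223 differed from Scramble by 1.06 (0.26 to 1.86; unadjusted p = 0.0129, adjusted p = 0.891 in limma) and from Anti-miR-223 by 1.01 (0.21 to 1.81; unadjusted p = 0.0169, adjusted p = 0.933 in limma). Anti-miR-223 replicate 4 was the lowest array in this cluster and the highest in the brighter one.

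A wider list of 90 genes was read from the same fit of all 12 arrays: 18 of ER folding, translocation and glycosylation, 13 of ERAD, 17 of stress sensing and eIF2 signalling, 26 of ATF4-linked amino acid supply and 16 of ATF4-linked stress and signalling. Of these, 81 were tested, 3 lay below the level and 6 had no cluster of their own. Limma called 0 in any comparison; unadjusted p was under 0.05 for 5 of 81 in Pre-miR-223 against Scramble (4.87% of all genes), for 0 in Anti-miR-223 against Scramble (2.01%) and for 2 in Pre-miR-223 against Anti-miR-223 (3.61%), all of them lower. These shares are near those of all genes. Bloc1s1, a transcript known to be degraded by activated IRE1, averaged 3.95 ± 0.27 in Pre-miR-223 cells, 4.29 ± 0.11 in Anti-miR-223 cells and 4.31 ± 0.13 in Scramble cells (SD, n = 4 each). It differed by -0.37 (-0.64 to -0.09) for Pre-miR-223 from Scramble and by -0.34 (-0.62 to -0.06) for Pre-miR-223 from Anti-miR-223, comparisons that share the Pre-miR-223 arrays. The folding enzymes Ppib, cyclophilin B, at -0.37 (-0.68 to -0.06), and Fkbp2, an ER prolyl isomerase, at -0.25 (-0.48 to -0.02), had the next smallest p in Pre-miR-223 against Scramble. In Anti-miR-223 against Scramble these were Vcp, the ERAD ATPase, at -0.20 (-0.44 to 0.04), Serp1 at -0.20 (-0.44 to 0.05) and the heme oxygenase Hmox1 at -0.16 (-0.38 to 0.06). Sil1, a nucleotide exchange factor of BiP, at -0.26 (-0.45 to -0.07), and Selenok, an ER selenoprotein, at -0.25 (-0.50 to 0.01), stood beside Bloc1s1 in Pre-miR-223 against Anti-miR-223. The adjusted p from limma was between 0.921 and 1.0 for all of these.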

How the data were processed

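The authors deposited 1 table of 41345 transcript clusters by 12 arrays in log2 units, already normalized between arrays. Per the submitters' processing notes, Affymetrix Expression Console, RMA and Partek were used, with no version and no role given; the log base and the genome build are not given in the sources used here, and base 2 was taken because RMA gives log2 values. Per the labels' protocols, RNA was extracted with miRNeasy and labelled with the WT PLUS reagents. RMA equalises the arrays, so a change in total RNA cannot be seen.

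From 23521 clusters with a single symbol, each gene kept its brightest, and 14611 genes had a mean log2 above 2.01, the 40th percentile over the table. A single limma model covered all 12 arrays (limma 3.58.1, R 4.3.3; lmFit, eBayes, 9 residual degrees of freedom, no covariate), 2-sided, with Benjamini-Hochberg adjustment over all 14611 genes at 0.05. Arm medians have no test. Arrays have no read depth, so precision depends on how many there are and on the spread between them. The median 95% interval reached 0.29 to either side. Columns of other samples numbered 0. Replicate numbers were not used to pair arrays in that model. In deviations from the group means, same-numbered arrays of Pre-miR-223 and Scramble correlated at -0.07 to 0.39 and differently numbered ones at -0.25 to 0.14. For Anti-miR-223 and Scramble these ranges were -0.46 to 0.13 and -0.40 to 0.52. For Pre-miR-223 and Anti-miR-223 they were -0.50 to 0.13 and -0.37 to 0.47.

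Full values were set by rule for Hspa5, Dnajb9, Herpud1, Xbp1, Atf4, Ddit3, Trib3, Asns and, per comparison, the 3 lowest p-values of each arm, and of the wider list the 3 lowest overall; genes named for Anti-miR-223 replicate 4, for motifs, for Atf5 and Pdia6 without that array and for the 2 Edem1 clusters were picked with their values in view. The genes and lists were chosen with earlier results of these data known. Alternatives were the level filter, the cluster rule, scaling, the spread estimate, array weights, the replicate block, the 2 groups alone and each array left out.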

Additional observations from a re-analysis of the deposited data

Results flagged for a closer look

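Within the groups of 4 arrays, 14 of 123 checks found an array whose gap to its nearest neighbour took up a larger share of the range of its group than Dixon's 95% critical value; chance gives about 1 in 20. That share follows in each sentence.

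Anti-miR-223 replicate 4 was the high array for Hspa5 (0.901; 9.17 against 7.85 to 7.98), Dnajc3 (0.929; 7.53 against 6.89 to 6.93) and Edem1 (0.875; 9.59 against 8.73 to 8.84). Anti-miR-223 replicate 3 was high for Nupr1 (0.93; 6.44 against 6.12 to 6.14). Pre-miR-223 replicate 2 was high for Hsp90b1 (0.88), for Slc3a2 (0.953; 8.33 against 7.94 to 7.96) and for the median deviation of the chaperone and ERAD genes (0.842; 0.03 against -0.10 to -0.08). Pre-miR-223 replicate 4 was low for Canx (0.887) and Dnajc3 (0.852; 6.82 against 7.03 to 7.07), and Pre-miR-223 replicate 3 was high for Dnajb9 (0.866). In Scramble, replicate 2 was high for Calr (0.909) and Sesn2 (0.843; 3.47 against 2.84 to 2.94) and low for Dnajb9 (0.8291; 4.80 against 5.16 to 5.24), and replicate 3 was low for Atf3 (0.854).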

How the results depend on the processing

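The count of called genes was 0, for the 38 genes and for all genes, under each of the 24 alternatives. The replicate block gave 0 calls, with an unadjusted p under 0.05 for 547 genes in Pre-miR-223 against Scramble, for 248 in Anti-miR-223 against Scramble and for 408 in Pre-miR-223 against Anti-miR-223, so pairing changed no call. In Pre-miR-223 against Scramble the median over all genes was -0.05, and between -0.08 and 0.03 under other scalings. The chaperone and ERAD median was -0.0057 with arrays centred on the tested genes (chosen after seeing the data), -0.016 with repeated quantile normalisation and 0.032 with cyclic loess; the ATF4-arm median was 0.029 with that centring and 0.033 with loess. Single genes changed sign while none passed the test. In Pre-miR-223 against Scramble, centring on the tested genes gave 0.015 for Hspa5, 0.060 for Atf4 and 0.032 for Trib3, loess gave 0.053 for Hspa5 and 0.098 for Atf4, and Atf4 was 0.037 with quantile normalisation and 0.050 with array weights. Array weights gave in Anti-miR-223 against Scramble -0.040 for Hspa5, 0.020 for Dnajb9, -0.023 for Xbp1, -0.014 for Atf6 and 0.058 for Atf4, and in Pre-miR-223 against Anti-miR-223 -0.0082 for Atf4 and -0.049 for Ddit3. Trib3 was -0.0026 with arrays centred on all clusters and -0.0052 with quantile normalisation in Anti-miR-223 against Scramble, and 0.021 with centring on the tested genes in Pre-miR-223 against Anti-miR-223. Leaving out each array in turn changed the sign of some genes. In Pre-miR-223 against Scramble Atf4 ranged over -0.070 to 0.029 and Trib3 over -0.11 to 0.042. In Anti-miR-223 against Scramble the ranges were -0.11 to 0.33 for Hspa5, -0.14 to 0.065 for Dnajb9, -0.024 to 0.20 for Herpud1, -0.15 to 0.28 for Xbp1, -0.12 to 0.23 for Atf6, -0.16 to 0.025 for Atf4, -0.15 to 0.16 for Ddit3, -0.057 to 0.061 for Trib3 and -0.083 to 0.18 for Asns. In Pre-miR-223 against Anti-miR-223 they were -0.39 to 0.050 for Hspa5, -0.045 to 0.14 for Atf4, -0.041 to 0.27 for Ddit3 and -0.11 to 0.033 for Trib3. The cause was not tested.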
